A study of Mus musculus with 23 samples.

Results

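The 42 genes described here are interferon-stimulated genes: genes whose transcription rises when a cell senses interferon. They were taken by symbol from a list that was chosen with earlier results of these data known. All 42 were found among the 41073 genes of the count tables. The shares of members set beside those of all genes therefore describe this list and are not an independent test of it. By role the list holds 4 regulators of interferon-driven transcription, 6 genes of the ISG15 and ADP-ribose systems, 22 antiviral effectors, 7 GTPases and 3 chemokines.

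RNA was sequenced in bulk from EpCAM-positive lung cells of C57BL/6 wild-type mice, which the labels call airway epithelial cells. The cells were sequenced freshly isolated (isolation, 3 libraries), on the day the medium was removed from the upper side of the transwell (airlift, 6 libraries), and after 4 days of air-liquid interface culture, either untreated (day 4 control, 7 libraries) or with NTHi, the airway bacterium non-typeable Haemophilus influenzae (day 4 NTHi, 7 libraries). Each of 3 experiments, A, B and C, gave libraries to every group, and no group carried another allele or agent. The labels give neither the dose and duration of the NTHi treatment nor the number of animals behind a library.

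Interferons are secreted proteins that bind receptors on the cell surface and, through JAK kinases, activate STAT transcription factors. Type I and type III interferons act mainly through a complex with STAT2 and IRF9 that binds the interferon-stimulated response element (ISRE) in gene promoters, while interferon gamma acts mainly through the gamma-activated site (GAS). Airway epithelium carries receptors for all 3 types, and its interferon-stimulated genes encode proteins that block viral replication, attack the vacuoles of intracellular microbes and recruit lymphocytes.

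Levels are given in CPM (normalised read counts, on library totals scaled by TMM), which do not account for gene length, so they compare libraries and not genes. Differences are log2 fold changes with their standard error, and a member is said to rise or fall where the Benjamini-Hochberg adjusted p of edgeR's quasi-likelihood test over all genes tested was below 0.05. Libraries held 32323375 to 39081663 counts. The epithelial markers Epcam, at 229 to 565 CPM, and Krt8, at 1343 to 3075 CPM over the libraries, were present in every group. Most of the 11 epithelial markers listed fell at airlift. Markers of other cells were present too, and in bulk RNA fewer cells of a type and less RNA per cell cannot be told apart. Nothing in the labels says that libraries of a group came from separate animals or cultures, so p-values measure the spread between these libraries, which may be technical. Control replicate 1 and NTHi replicate 3 of experiment C stood apart from the other libraries of their groups. For Usp18, Cmpk2, Ifit1 and Mx2 the NTHi value is also given without that control, and for Rsad2 without both libraries. Other values include them unless a fit that left them out is named.

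The bases just before the transcription start are described by role, and differences between roles were not tested. RefSeq promoters (mouse build GRCm38.p6, while the counts were made on GRCm39) were available for 33 members, and the 250 bases before each start were searched on both strands. The ISRE core (GAAA, any 2 bases, then GAAA) was found in 16 of the 33 members (48.5%) and before 2.98% of 32851 RefSeq starts. All 7 GTPases held it, against 6 of 17 antiviral effectors, 1 of 4 regulators, 1 of 3 genes of the ISG15 and ADP-ribose systems and 1 of 2 chemokines. The GAS letters, TTCNNNGAA, were found in 8 of the 33 members (24.2%), among them 4 of the 7 GTPases, and before 7.02% of starts. A member with more than 1 listed start was counted where any of its starts held the letters, and overlapping matches were counted. A match is a description of the letters and not of binding, and no match means only that these letters were absent from the 250 bases searched. Not among the listed promoters were Mx1, Mx2, Oas2, Zbp1, Rtp4, Usp18, Parp9, Parp14 and Cxcl11. The 6 sequences below were chosen because their genes carry the main patterns of the results, 5′ to 3′ on the gene's strand, with ISRE and GAS letters in capitals. In Isg15 (chr4:156200819-156201068, minus strand), 3 overlapping ISRE cores run from 78 to 57 bases before the start.
Isg15: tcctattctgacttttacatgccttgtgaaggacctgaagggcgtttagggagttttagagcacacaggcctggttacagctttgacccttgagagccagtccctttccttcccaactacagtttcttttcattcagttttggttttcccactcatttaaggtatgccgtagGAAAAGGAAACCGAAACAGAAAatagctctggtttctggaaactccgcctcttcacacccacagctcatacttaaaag
Gbp2 (chr3:142620413-142620662, plus strand) holds 1 ISRE core, 59 to 50 bases before the start.
Gbp2: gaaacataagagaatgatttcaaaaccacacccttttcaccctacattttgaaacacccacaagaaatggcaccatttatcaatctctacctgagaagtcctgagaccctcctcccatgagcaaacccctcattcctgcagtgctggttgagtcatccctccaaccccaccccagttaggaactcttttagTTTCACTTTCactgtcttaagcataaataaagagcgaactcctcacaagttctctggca
Irgm2 (chr11:58214727-58214976, plus strand) holds GAS letters that begin 75 bases before the start and an ISRE core that begins 64 bases before it.
Irgm2: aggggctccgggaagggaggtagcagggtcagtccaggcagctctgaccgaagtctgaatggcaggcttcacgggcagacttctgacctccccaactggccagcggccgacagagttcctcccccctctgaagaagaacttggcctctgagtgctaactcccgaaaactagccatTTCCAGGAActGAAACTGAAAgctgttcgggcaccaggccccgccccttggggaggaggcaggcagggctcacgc
Ifit3 (chr19:34583279-34583528, plus strand) holds 2 ISRE cores, which begin 156 and 122 bases before the start.
Ifit3: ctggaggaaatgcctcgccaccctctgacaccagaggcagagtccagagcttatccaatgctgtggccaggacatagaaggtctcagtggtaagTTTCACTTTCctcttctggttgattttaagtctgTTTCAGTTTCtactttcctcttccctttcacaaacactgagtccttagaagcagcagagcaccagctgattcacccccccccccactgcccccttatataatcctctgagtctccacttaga
Rsad2 (chr12:26456453-26456702, minus strand) holds 1 ISRE core, which begins 120 bases before the start.
Rsad2: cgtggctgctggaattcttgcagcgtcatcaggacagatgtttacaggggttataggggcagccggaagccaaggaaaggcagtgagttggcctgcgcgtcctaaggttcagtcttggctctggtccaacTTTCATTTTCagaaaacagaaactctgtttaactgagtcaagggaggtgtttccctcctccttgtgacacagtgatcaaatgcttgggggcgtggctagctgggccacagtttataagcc
Irf1 (chr11:53769764-53770013, plus strand) holds GAS letters and no ISRE core.
Irf1: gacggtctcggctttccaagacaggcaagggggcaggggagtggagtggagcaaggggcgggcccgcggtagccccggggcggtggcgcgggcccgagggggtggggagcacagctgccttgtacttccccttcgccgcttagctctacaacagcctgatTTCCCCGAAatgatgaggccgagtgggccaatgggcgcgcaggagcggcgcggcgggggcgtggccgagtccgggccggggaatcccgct

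Across the culture most members followed a course of rise, fall and rise. From isolation to airlift 34 of 42 members rose and 5 fell, where 37.9% of 18302 genes were called higher and 36.7% lower. From airlift to day 4 control 37 of 42 fell and Cxcl9 rose, where 27.7% of genes were called lower and 26.9% higher. Of the falls, those of Bst2, Cmpk2, Cxcl10, Ifit1, Ifit3, Mx1 and Rsad2 lost the call under 1 or more of 28 alternatives. With NTHi at day 4, 30 of 41 members tested rose above control and 1 fell, where 20.1% of 16337 genes were called higher and 20.4% lower. The median log2 change of the members was 1.54, -0.75 and 0.76 in turn. The last 2 of these comparisons share the control libraries, and the first 2 share the airlift libraries, so a library that lies high or low in a shared group moves both values. Scaling by library totals alone moved the median of all genes to 0.487 at airlift, with 10131 genes higher and 4223 lower against 6928 and 6718 with TMM, and members then stood at 37 higher and 3 lower. For NTHi it gave 2282 genes higher and 4416 lower against 3281 and 3338, and 29 members higher and 2 lower.

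In all, 31 of 42 members rose at airlift and fell by day 4 in control culture, as 13.3% of 18302 genes did. Of these, 26 also rose with NTHi, a course that 3.86% of 16293 genes tested in each step had: 7 of 7 GTPases, 12 antiviral effectors, 4 genes of the ISG15 and ADP-ribose systems and 3 regulators. Cmpk2, Ifit1, Mx1 and Usp18 shared the rise and fall without a call for NTHi, and Ifit3 fell with NTHi. Of the 4 groups, airlift had the highest mean level for 22 members, day 4 NTHi for 14 and isolation for 6, and day 4 control for 0. Isolation had the lowest mean for 30 members, day 4 control for 10 and day 4 NTHi for 2.

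Day 4 control differed from isolation for members about as often as for all genes, and for members more often upward. Against isolation 25 members were higher and 8 lower, where 38.8% of 18302 genes were called higher and 37.7% lower. Scaled by library totals alone, where the median of all genes was 0.49 and 10149 genes were higher and 4497 lower against 7108 and 6904 with TMM, the members stood at 33 higher and 6 lower. NTHi cultures did not reach airlift for most: against airlift 23 of 41 members were lower and 11 higher, where 31.1% of 16635 genes were called lower and 29.7% higher. The 11 higher were Irf1, Parp9, Parp14, Dtx3l, Zbp1, Ifitm3, Gbp2, Gbp3, Irgm1, Irgm2 and Cxcl10. Of these, Parp14 at 0.18 and Irgm2 at 0.26 lost the call under 13 and 9 of 25 alternatives, most of which left out 1 library.

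**Figure D1:**
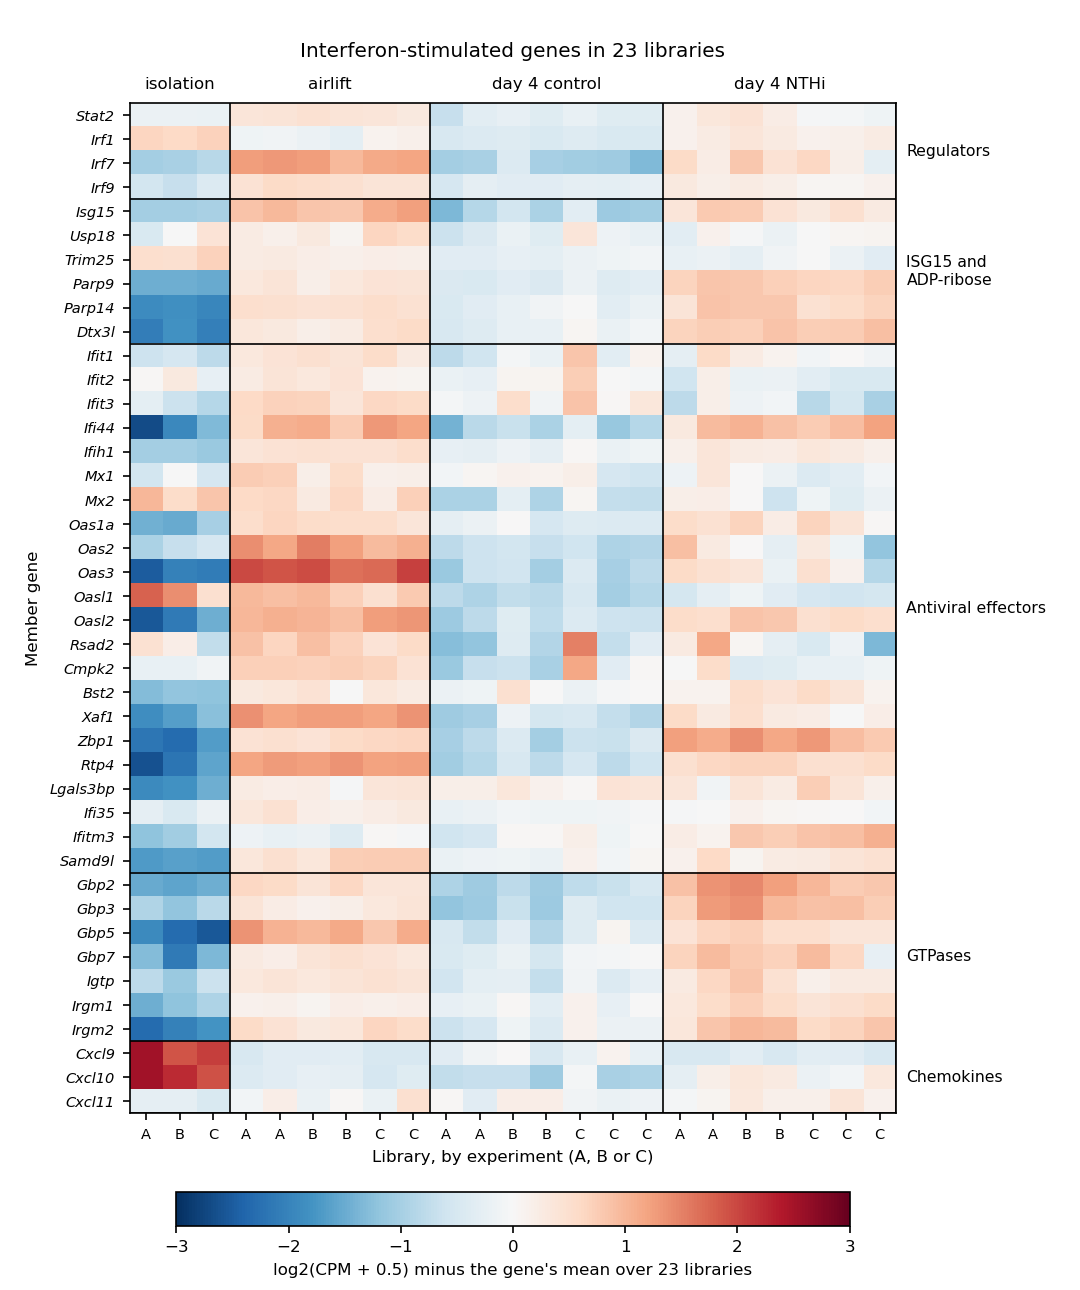
Heat map of the 42 members (rows, by role) in 23 libraries (columns, by group and experiment), coloured by log2(CPM + 0.5) minus the gene's mean over the libraries, with values past 3 in either direction drawn in the end colour. Most rows are low at isolation, high at airlift, low at day 4 control and high again with NTHi, while Irf1, Cxcl9 and Cxcl10 are highest at isolation.

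Among the regulators, Irf7, the factor that amplifies type I interferon responses, changed most. Its level was 19.3, 20.1 and 22 CPM in the isolation libraries and 78.9 to 98.8 CPM at airlift (median 93.4, n = 6). Control libraries lay between 15.6 and 29.9 CPM (median 19.5, n = 7) and NTHi libraries between 32.6 and 70.3 CPM (median 53.8, n = 7). Neither the isolation and airlift libraries nor the control and NTHi libraries overlapped, and control libraries spanned the isolation values. The log2 change was 2.18 ± 0.14 at airlift (adjusted p = 8.5e-11) and 1.37 ± 0.13 with NTHi (adjusted p = 8.2e-07).

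Stat2 and Irf9, both parts of the ISRE-binding complex, moved the same way by less. Stat2 rose by 0.59 ± 0.08 at airlift and by 0.50 ± 0.08 with NTHi, and Irf9 by 1.04 ± 0.08 and 0.49 ± 0.05. Control and NTHi libraries did not overlap for either gene, at 28.8 to 40.3 against 42.7 to 63.0 CPM for Stat2.

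Irf1, a factor that interferon gamma and inflammatory cytokines induce, had another order. It measured 202, 209 and 215 CPM at isolation, 108 to 149 CPM at airlift (median 123), 95.1 to 102 CPM in control (median 97.1) and 145 to 172 CPM with NTHi (median 157). Isolation libraries lay above all others, and NTHi libraries above all controls. The log2 change was -0.70 ± 0.06 at airlift (adjusted p = 1.4e-08), the 1 fall among the 4 regulators, and 0.65 ± 0.04 with NTHi (adjusted p = 2.4e-09). With the 3 others called higher, 4 of 4 regulators rose with NTHi, beside 20.1% of all genes.

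Of the 6 genes of the ISG15 and ADP-ribose systems 4 rose with NTHi, beside 20.1% of all genes, and 2 were not called. Isg15 encodes a ubiquitin-like protein that is attached to other proteins during the interferon response. Its libraries read 7.66, 7.66 and 7.90 CPM at isolation, 28.3 to 37.9 at airlift (median 30.6), 5.98 to 12.8 in control (median 8.01) and 19.4 to 27.9 with NTHi (median 21.7). Airlift and NTHi libraries each lay above the isolation and control libraries without overlap, and the airlift libraries above those with NTHi. The log2 change was 2.05 ± 0.18 at airlift (adjusted p = 5.8e-09) and 1.38 ± 0.15 with NTHi (adjusted p = 2.9e-06).

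Parp9, Parp14 and Dtx3l, of which PARP9 and DTX3L form a complex that ADP-ribosylates and ubiquitinates targets, stayed well above isolation in control culture. At airlift they rose by 1.85 ± 0.07, 2.42 ± 0.08 and 2.40 ± 0.10, and day 4 control still exceeded isolation by 1.13 ± 0.07, 1.68 ± 0.08 and 1.79 ± 0.10. With NTHi the 3 genes rose by 1.08 ± 0.05, 0.90 ± 0.08 and 1.0 ± 0.05, with no overlap of libraries. Parp9 and Dtx3l overlap in the genome, so their reads may be shared.

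The other 2 genes of this group did not pass the test for NTHi. Usp18, the protease that removes ISG15 and dampens receptor signalling, read 8.56 to 17.7 CPM in control (median 11.7) and 11 to 15.1 CPM with NTHi (median 13.6), a difference of 0.20 ± 0.11 (adjusted p = 0.16). Without control replicate 1 of experiment C, the highest control, it rose by 0.29. Its rise at airlift, 0.36 ± 0.12, lost the call without the isolation library of experiment A (0.26). Trim25, a ubiquitin ligase that acts with the RNA sensor RIG-I, fell at airlift by 0.33 ± 0.06, with the sign turned to 0.15 under scaling by library totals.

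Among the 22 antiviral effectors, 18 rose at airlift and Oasl1 fell, where 37.9% of all genes were called higher and 36.7% lower. With NTHi 14 rose and Ifit3 fell, where 20.1% were called higher and 20.4% lower, and 7 did not pass the test: Ifit1, Ifit2, Mx1, Mx2, Rsad2, Cmpk2 and Lgals3bp. The median log2 change was 1.54 at airlift and 0.42 with NTHi, beside 1.54 and 0.76 over all members tested. Their libraries separated without overlap for 18 effectors at airlift, where 33.7% of all genes did so upward, and for 7 with NTHi, where 8.26% of genes did.

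Oas genes encode sensors of double-stranded RNA that activate RNase L, and Oasl2 a related protein. Oasl2 read 5.15, 7.09 and 11.4 CPM at isolation, 61.3 to 82.3 at airlift (median 67.3), 14.9 to 25.1 in control (median 20.5) and 45.6 to 58.8 with NTHi (median 47.9). The 4 groups did not overlap at any point of that order. The log2 change was 3.20 ± 0.16 at airlift (adjusted p = 2.1e-12) and 1.29 ± 0.08 with NTHi (adjusted p = 8.4e-09).

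Oas3 had the largest rise of any member at airlift, from 0.511, 0.917 and 0.832 CPM at isolation to 17.7 to 23.2 CPM (median 21.3), 27.6-fold or 4.78 ± 0.23 on the log2 scale (adjusted p = 1.3e-12). In control it lay at 2.15 to 3.80 CPM and with NTHi at 2.66 to 8.06 CPM, ranges that overlapped although the difference of 1.07 ± 0.22 passed the test (adjusted p = 0.001). The overlap came from NTHi replicate 3 of experiment C alone, at 2.66 CPM. Oas1a and Oas2 rose with NTHi by 0.76 ± 0.11 and 0.92 ± 0.24; the Oas2 value without experiment A was 0.66 and did not pass the test. Oas1a has close paralogs and may share reads with them. Oasl1 went the other way at airlift, at -0.46 ± 0.17 (adjusted p = 0.021). That call was lost without the isolation library of experiment A (-0.17) or of experiment B (-0.40), and scaling by library totals alone gave 0.03. With NTHi Oasl1 rose by 0.41 ± 0.10.

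The largest NTHi rises among the effectors were those of Zbp1 and Ifi44. Zbp1, a sensor of Z-form nucleic acid that can trigger necroptosis, read 2.15, 1.91 and 3.22 CPM at isolation, 15.2 to 18.2 at airlift (median 16.7), 5.34 to 8.37 in control (median 7.01) and 20.1 to 30.6 with NTHi (median 26.1). It was thus highest with NTHi, without overlap with airlift, and rose over control by 1.91 ± 0.12 (adjusted p = 7.3e-09). Ifi44, which restrains viral replication, read 2.10 to 5.2 CPM in control (median 3.36) and 8.12 to 15.7 CPM with NTHi (median 12.8), a rise of 1.87 ± 0.16 (adjusted p = 2.3e-07). Its airlift libraries lay at 9.89 to 16.6 CPM and overlapped those with NTHi.

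Rtp4 and Xaf1, also strongly induced at airlift, rose by 3.50 ± 0.16 and 3.03 ± 0.18 there and by 1.32 ± 0.07 and 1.02 ± 0.12 with NTHi. Rtp4 is a receptor-transporting protein with antiviral activity and Xaf1 a partner of XIAP that promotes apoptosis. Ifih1, the RNA sensor MDA5, rose by 1.54 ± 0.07 and 0.43 ± 0.05. Bst2, which tethers budding virions, rose by 1.55 ± 0.12 and 0.32 ± 0.08, and Samd9l, an inhibitor of translation, by 2.27 ± 0.09 and 0.40 ± 0.07. Ifi35 had the smallest called NTHi rise, 0.15 ± 0.04, which lost its call under 4 of 26 alternatives.

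Ifitm3 and Lgals3bp rose at airlift and did not pass the test between airlift and day 4 control. Ifitm3, a membrane protein that blocks viral entry, lay at 81.3 to 109 CPM at airlift (median 95.7), 70.6 to 121 CPM in control (median 106) and 115 to 224 CPM with NTHi (median 188). Control and NTHi libraries overlapped between 115 and 121 CPM, and the rise of 0.81 ± 0.06 (adjusted p = 2.4e-08) came from a fit with experiment as a term. Lgals3bp, a secreted glycoprotein, went from 88.4 to 121 CPM at isolation to 326 to 432 CPM at airlift, 343 to 442 CPM in control and 308 to 553 CPM with NTHi. It rose by 1.98 ± 0.10 at airlift, and its control and NTHi libraries overlapped.

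Ifit3 was the 1 member that fell with NTHi. IFIT proteins bind viral RNA and complex with each other. Ifit3 libraries read 13.3, 10.2 and 8.80 CPM at isolation, 21.3 to 26.5 at airlift (median 25.3), 14.6 to 29.7 in control (median 16.7) and 8.02 to 18.6 with NTHi (median 11.1). Control and NTHi libraries overlapped, and the log2 change was -0.68 ± 0.21 (adjusted p = 0.018). The highest control, at 29.7 CPM, was replicate 1 of experiment C, and the lowest NTHi library, at 8.02 CPM, was replicate 3 of experiment C. Within experiments it was -0.117 in A, -0.376 in B and -1.265 in C, and without experiment C it was -0.25 and did not pass the test. Ifit3 has a near-identical neighbour, Ifit3b, and may share reads with it.

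Rsad2, Cmpk2, Ifit1 and Ifit2 had 1 control library that lay well above the other 6. Rsad2 encodes viperin, a radical SAM enzyme, and Cmpk2, its genomic neighbour, a nucleotide kinase whose product feeds viperin. Rsad2 read 17.3, 14.4 and 7.24 CPM at isolation, 16.8 to 23.8 at airlift (median 20.1), 4.81 to 36.7 in control (median 7.39) and 4.60 to 28.4 with NTHi (median 11.2). The highest control was replicate 1 of experiment C, with the other 6 controls between 4.81 and 9.82 CPM. The NTHi difference was 0.23 ± 0.50 (adjusted p = 0.75). Without that control and NTHi replicate 3 of experiment C it was 0.94, and passed the test. By experiment it was 2.105 in A, 0.536 in B and -1.125 in C.

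Cmpk2, Ifit1 and Ifit2 had the same library as their highest control, at 22.9, 25.3 and 26.5 CPM. Cmpk2 differed by 0.19 ± 0.29 with NTHi and Ifit1 by 0.21 ± 0.21, and without that control they rose by 0.50 and 0.40. Ifit2 differed by -0.37 ± 0.16 (adjusted p = 0.068), and passed the test as a fall of 0.52 without NTHi replicate 2 of experiment A. At airlift Cmpk2 rose by 0.93 ± 0.34 and Ifit1 by 1.08 ± 0.23; the Cmpk2 call was lost without the isolation library of experiment C (0.75). Ifit2 and Rsad2 did not pass there, at 0.25 ± 0.17 and 0.64 ± 0.49. Ifit1 overlaps Ifit1bl1 and may share reads with it.

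Mx1 and Mx2 encode dynamin-like antiviral GTPases, and C57BL/6 mice carry a defective Mx1. Mx1 lay at 6.26 to 11 CPM in control and 7.19 to 12.5 CPM with NTHi, overlapping in most of the range. Mx2 was low throughout, at 0.537 to 1.61 CPM in control and 0.819 to 1.81 CPM with NTHi. The Mx2 difference, 0.72 ± 0.28, sat at the threshold (adjusted p = 0.05) and was called under 11 of 26 alternatives, among them those without control replicate 1 of experiment C (0.96), control replicate 1 of B (0.87), NTHi replicate 2 of B (0.83) and NTHi replicate 2 of C (0.79).

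**Figure D2:**
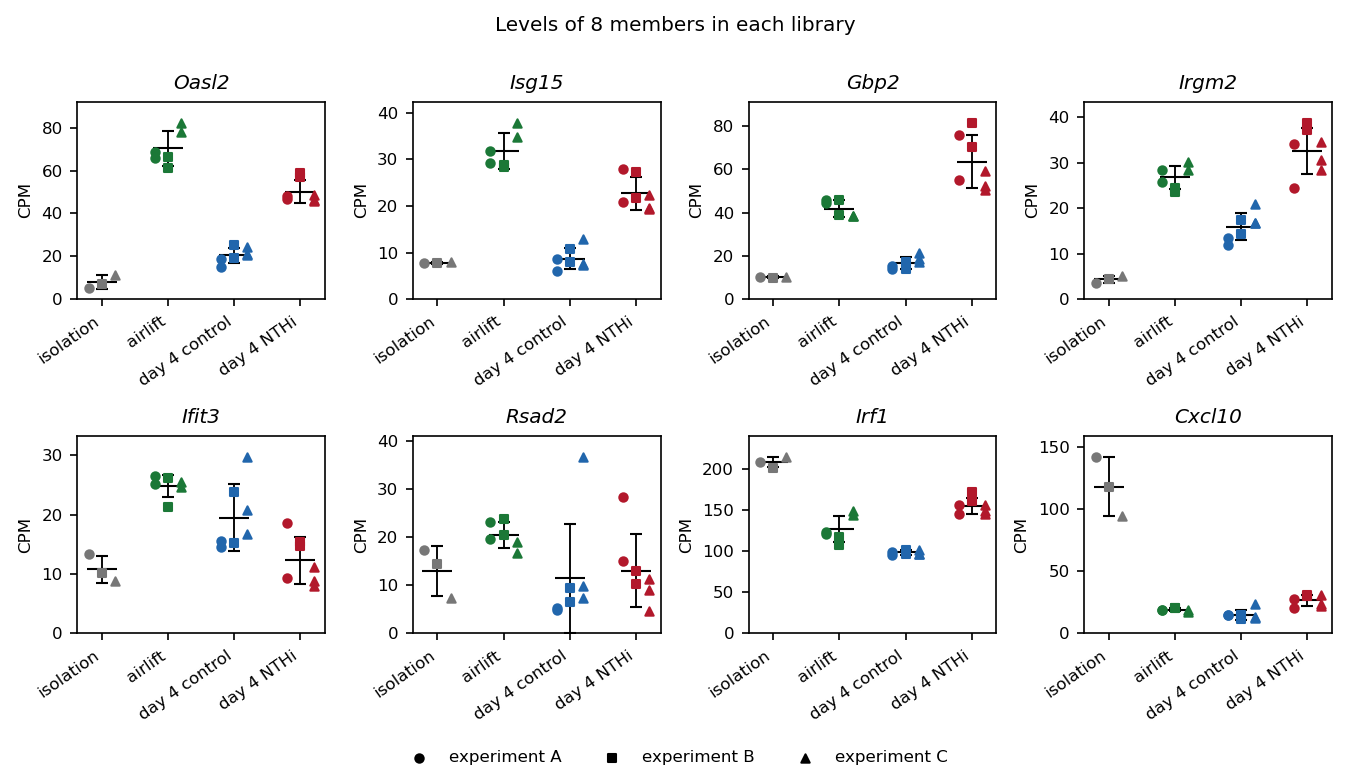
CPM of 8 members in each library (points, with shape for the experiment), with the mean (bar) and SD (whiskers) of each group of 3 to 7 libraries, on linear axes that start at 0. Oasl2, Isg15, Gbp2 and Irgm2 separate control from NTHi, whereas for Rsad2 1 control library of experiment C, at 36.7 CPM, lies above all others.

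The 7 members listed as GTPases moved in the same direction in each of these steps. Guanylate-binding proteins (Gbp) and immunity-related GTPases (Irgm1, Irgm2 and Igtp) assemble on the vacuoles of intracellular bacteria and parasites or regulate that assembly. Of 7 GTPases, 7 rose at airlift, 7 fell by day 4 control and 7 rose with NTHi, where 37.9%, 27.7% and 20.1% of all genes were called in those directions. The median log2 change was 2.09, -0.80 and 1.0 in turn, and control and NTHi libraries did not overlap for 6 of the 7, with NTHi higher, as for 8.26% of all genes. None of the 21 calls was lost under any alternative. Mx1 and Mx2 also encode GTPases but were counted among the antiviral effectors. Neither was called with NTHi, both fell by day 4 control, and at airlift Mx1 rose and Mx2 was not called.

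Gbp2 read 9.53 to 10.4 CPM in the 3 isolation libraries, 38.2 to 45.9 at airlift (median 41.6), 13.8 to 21.2 in control (median 17.0) and 50.5 to 81.5 with NTHi (median 59.4). NTHi libraries lay above all airlift libraries, which lay above all controls. Gbp2 rose 3.78-fold over control, 1.92 ± 0.13 on the log2 scale (adjusted p = 1.3e-08), and exceeded airlift by 0.60 ± 0.08. Gbp3, with 1.94 to 3.75 CPM in control (median 2.96) and 8.28 to 13.8 CPM with NTHi (median 9.74), had the largest NTHi rise of any member tested, 1.94 ± 0.16 (adjusted p = 1.6e-07).

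Gbp5, which promotes inflammasome assembly, was the GTPase that rose most at airlift. It went from 1.46, 0.988 and 0.763 CPM at isolation to 12.4 to 18.3 CPM (median 15.1), a change of 3.84 ± 0.25 (adjusted p = 1.0e-10). With NTHi it reached 9.01 to 11.7 CPM against 3.52 to 7.31 CPM in control, a rise of 1.0 ± 0.13, and stayed below airlift. Gbp7 rose with NTHi by 0.95 ± 0.16; its control range of 5.24 to 7.68 CPM overlapped NTHi through replicate 3 of experiment C alone, at 6.54 CPM.

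Irgm2 read 3.43, 4.30 and 5.17 CPM at isolation, 23.5 to 30.2 at airlift (median 27.0), 12 to 21 in control (median 16.7) and 24.4 to 38.8 with NTHi (median 34.1). Control libraries sat between isolation and airlift with no overlap, and the NTHi rise was 1.04 ± 0.10 (adjusted p = 9.7e-07). Igtp, also known as Irgm3, rose by 0.81 ± 0.12 and Irgm1 by 0.63 ± 0.07. Gbp and Irgm genes lie in families of similar sequence and may share reads.

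The 3 chemokines attract T cells through CXCR3. At airlift Cxcl9 and Cxcl10 fell, against the direction of most members, and Cxcl11 rose. Cxcl10 read 142, 118 and 94.1 CPM at isolation, 17.1 to 20.7 at airlift (median 19.1), 11.5 to 23.4 in control (median 14.5) and 20.4 to 30.9 with NTHi (median 27.6). Isolation libraries lay far above the rest, and the change at airlift was -2.61 ± 0.16 (adjusted p = 4.7e-11). With NTHi it rose by 0.82 ± 0.15 (adjusted p = 4.8e-04), with overlap through control replicate 1 of experiment C. Cxcl9 fell from 2.05 to 3.47 CPM at isolation to at most 0.0527 CPM at airlift, where 3 of 6 libraries had no count, a change of -6.48 ± 0.61 (adjusted p = 2.0e-08). With 34 counts over 7 control libraries and 6 over 7 NTHi libraries it was left untested for NTHi. The Cxcl9 rise from airlift to control, 2.08 ± 0.75 (adjusted p = 0.025), lost the call, at 1.80 to 1.85, without airlift replicate 1 of experiment A, control replicate 1 of B, or airlift replicate 1, airlift replicate 2 or control replicate 2 of C. Cxcl11, of which C57BL/6 mice make no functional protein, had 4 counts in all at isolation and 49 to 75 in the other groups. Its rise at airlift, 2.18 ± 0.85 (adjusted p = 0.028), lost the call without 4 single libraries: airlift replicate 2 of experiment A (2.01), isolation of B (2.42), and airlift replicate 2 (1.73) and isolation (1.64) of C. Cxcl10 and Cxcl11 overlap Art3 in the genome.

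**Figure D3:**
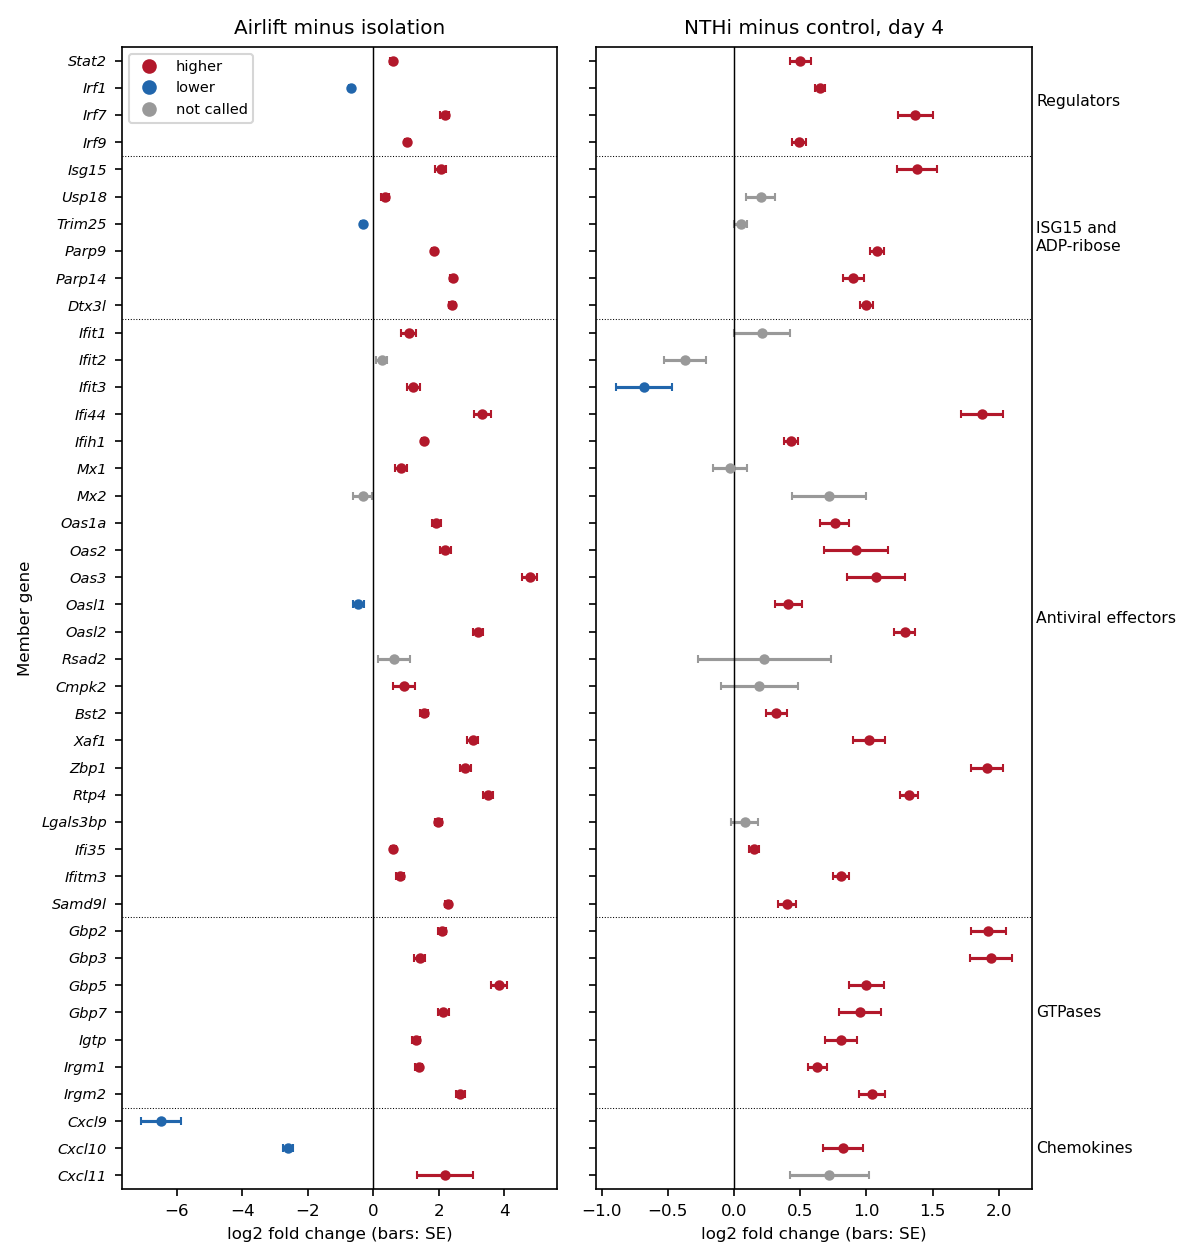
Log2 fold change of each member, with its SE, for airlift against isolation (left) and NTHi against control at day 4 (right), by role and coloured by call. Members lie mostly right of 0 in both panels; Cxcl9 at -6.48 and Oas3 at 4.78 mark the ends on the left, and Ifit3 at -0.68 and Gbp3 at 1.94 on the right.

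The NTHi rise was seen in each experiment. Within experiment A 32 of 40 members tested rose, where 9.63% of genes were called higher; within B 27 of 41 rose, where 9.05% were; within both, 0 members fell, where 10.8% and 9.38% of genes were called lower; and within C 22 of 41 rose and Ifit3 fell, where 8.30% were called higher and 7.55% lower. Isg15 rose by 1.729 in A, 1.39 in B and 1.149 in C, and Gbp2 by 2.156, 2.292 and 1.507. The test for an NTHi effect that differed between experiments called 0 of 16337 genes (0%) and 0 of 41 members with edgeR. At an unadjusted p below 0.05 it held 675 genes (4.13%) and 9 members: Stat2, Cmpk2, Ifit1, Ifit3, Rsad2, Xaf1, Gbp2, Gbp3 and Igtp. DESeq2 called 0 members.

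Genes for the interferons themselves had few counts. The 21 ligand genes together had 140 counts over 3 isolation libraries, 48 over 6 at airlift, 15 over 7 in control and 33 over 7 with NTHi. Of the isolation counts 86 were of Ifnab, which lay at 0.381 to 1.42 CPM there. It was the 1 ligand with enough counts to be tested, and its log2 change was -3.04 ± 0.50 at airlift (adjusted p = 2.4e-05) and -5.22 ± 0.60 in day 4 control against isolation (adjusted p = 2.7e-07). Ifnb1, the early type I interferon, had 16 counts at isolation, 4 at airlift and none at day 4 with or without NTHi. Ifng had 12 counts at isolation, 2 at airlift, 0 in control and 10 with NTHi. A count of 0 in a library allows a level of up to 3 counts, which is 0.0709 to 0.109 CPM over the libraries, for counting error only, and a higher one where read pairs were counted as 2. Lower levels were not detectable at this depth.

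Of the 6 genes for receptor chains of the 3 interferon types, 6 rose with NTHi, where 20.1% of all genes were called higher, with Ifnar2 at 1.20 ± 0.04, Ifngr2 at 0.87 ± 0.04, Ifnar1 at 0.54 ± 0.04 and the lambda receptor chain Ifnlr1 at 0.39 ± 0.07. At airlift 4 rose and Ifnar2 fell by 0.59 ± 0.06, where 37.9% were called higher and 36.7% lower. Of 8 negative regulators 3 rose (37.5%) and 2 fell (25%) with NTHi, with a median log2 change of -0.05, beside 20.1% and 20.4% of all genes. Socs3, among those that rose, changed by 1.04 ± 0.10. At airlift 6 of the 8 fell and 0 rose, with Socs3 at -1.72 ± 0.08. Of 18 nucleic acid sensing genes 9 rose (50.0%) and 2 fell (11.1%) with NTHi, with Sting1 at 0.63 ± 0.04.

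Other interferon-stimulated genes, outside the 42, were counted in the same 3 steps, against the same shares of all genes. These lists too were chosen with earlier results of these data known. Of 42 other antiviral genes tested, 31 rose with NTHi and 1 fell, Ifi27l2a at -2.01 ± 0.27, and at airlift 36 of 43 rose and 4 fell. From airlift to day 4 control 36 of 43 fell and 4 rose. Among 8 other GTPases tested, 6 rose with NTHi, with Iigp1 at 2.18 ± 0.42, Tgtp1 at 1.54 ± 0.14 and Gbp6 at 1.43 ± 0.14. At airlift 6 of the 8 rose, with Tgtp1 at 2.18 ± 0.12, while Iigp1 and Gbp6 were the 2 not called. From airlift to day 4 control 5 of these 8 fell and 2 rose, beside 7 of 7 member GTPases that fell. In day 4 control against isolation 2 of the 8 were higher and 0 lower, beside 6 of the 7 member GTPases higher. In that comparison 38.8% of all genes were called higher and 37.7% lower, so the 8 were not higher more often than all genes. These differences between lists were not tested.

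**Figure D4:**
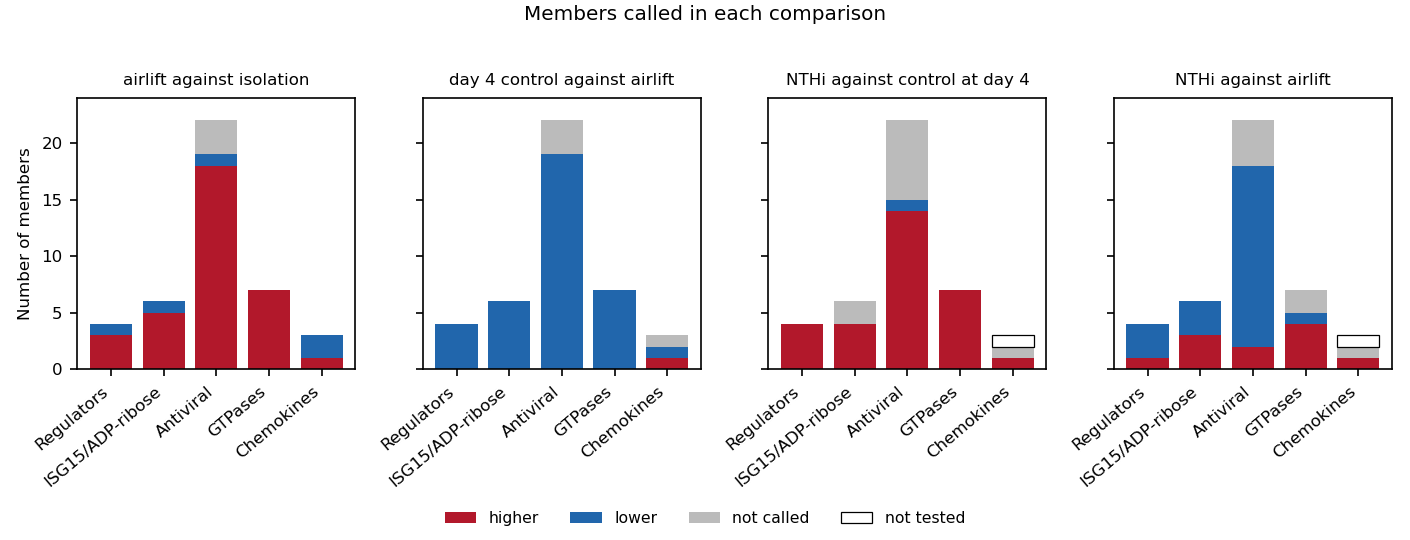
Number of members of each role called higher, lower, not called or not tested (bars, stacked) in 4 comparisons. The 7 GTPases are called higher at airlift, lower at day 4 control and higher with NTHi, while 7 of 22 antiviral effectors are not called with NTHi. Some of these 7 were called when libraries that stood apart in experiment C were left out.

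Markers of other cells moved with the groups. The 15 genes listed as markers of macrophages and monocytes, Lyz2 included, summed to 20469 to 27308 CPM at isolation, 3683 to 4138 at airlift, 7025 to 14757 in control and 1397 to 4991 with NTHi. With NTHi 11 of 15 fell and 2 rose, where 20.4% of all genes were called lower and 20.1% higher. None of the 15 was at 0 in any group as a whole, though C1qa lay at 0.204 to 0.731 CPM with NTHi. The sum of these 15 genes was highest at isolation and was lower with NTHi than in control. Such a sum follows its most abundant genes and is not a measure of the number of macrophages. The 8 markers of dendritic cells summed to 259 to 286 CPM at isolation, 143 to 157 at airlift, 126 to 255 in control and 40.1 to 143 with NTHi. Siglech, a marker of plasmacytoid dendritic cells, lay at 4.65 to 5.18 CPM at isolation and at 0 in every NTHi library. Of the 8, 6 were already lower in day 4 control than at isolation and 0 higher, with log2 changes down to -8.88. There 37.7% of all genes were called lower and 38.8% higher. For NTHi against control 6 of the 8 were tested: 2 fell, none by more than 1.45, and 1 rose, where 20.4% and 20.1% of all genes did. The 7 neutrophil markers summed to 17.5 to 28.4 CPM at isolation, 6.77 to 9.61 at airlift, 4.05 to 7.46 in control and 6.23 to 23.4 with NTHi. Mpo, Elane and Cxcr2 were at 0 with NTHi. Only 3 of the 7 were tested for NTHi against control: 1 rose, 1 fell and 1 was not called, where 20.1% of all genes were called higher and 20.4% lower. The 10 lymphocyte markers summed to 57.9 to 71.9 CPM at isolation, 19.9 to 24.2 at airlift, 16.2 to 33.2 in control and 6.64 to 18.9 with NTHi. The 11 epithelial markers, Sftpc included, summed to 220780 to 231384 CPM at isolation, 26766 to 35324 at airlift, 10925 to 12848 in control and 7914 to 9139 with NTHi. At airlift 7 of the 11 fell and 3 rose, where 36.7% of all genes were called lower and 37.9% higher. By day 4 control 6 rose and 3 fell, where 26.9% were called higher and 27.7% lower. With NTHi 6 fell and 2 rose, where 20.4% were called lower and 20.1% higher. The 8 mesenchymal markers summed to 18.4 to 32.4 CPM at isolation, 29.5 to 79.8 at airlift, 200 to 502 in control and 191 to 533 with NTHi. From airlift to control 8 of 8 rose, where 26.9% of all genes were called higher. The 8 endothelial markers summed to 55.1 to 73.1 CPM at isolation, 10.1 to 20.4 at airlift, 9.63 to 19.2 in control and 8.6 to 12.9 with NTHi. At airlift 6 of 8 fell, where 36.7% of all genes were called lower. The part of these cells in the changes of the members was not tested.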

How the data were processed

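The authors deposited 1 table of raw counts per gene for each experiment, whole numbers and not normalised, with 23 library columns in all. Per the submitters' processing notes, STAR and DESeq2 were used with the build GRCm39 (no versions stated). No source used here gives the counting tool or whether it used strand, so reads of overlapping or antisense genes cannot be told apart. Groups and experiments came from the labels. In every table, 25 broken lines were left out, which removed 6 genes, none of them a member. Low counts were even in 69.3% to 74.9% of cases, as when both reads of a pair are counted, and independent fragments may thus be fewer than counts.

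Tests used edgeR 4.0.16 in R 4.3.3: genes kept by filterByExpr (minimum count 10), TMM scaling, a quasi-likelihood F-test with group and experiment as terms, and Benjamini-Hochberg adjustment over all genes tested, at 0.05. NTHi and control were fitted on the day 4 libraries, the untreated groups in 1 fit, and NTHi with airlift on those groups. The SE is the log2 fold change divided by the square root of F. Alternatives were DESeq2 1.42.0, its size factors, library totals alone, no filter, no experiment term, halved counts, all 23 libraries in 1 fit, a replicate block, and leaving out each experiment or library; the fit without 2 libraries of experiment C was chosen after seeing the data. The script was tested on simulated data.

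Every member may be named. Those given with values in every group are, by rule, the largest or smallest changes of their role, those that differ in direction from it, or those whose sign turns. The members and the other gene lists were chosen with earlier results of these data known. Promoter sequences came from RefSeq, build GRCm38.p6.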

Additional observations from a re-analysis of the deposited data

Results flagged for a closer look

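A library lay far from the others of its group (Dixon's gap over range, 95% level, groups of 6 or 7) in 14 of 124 groups of values tested, where chance alone gives about 1 in 20. In 6 of the 14 it was control replicate 1 of experiment C, the highest control for Rsad2 (36.7 CPM, the others 4.81 to 9.82), Cmpk2 (22.9 CPM), Ifit1 (25.3 CPM), Ifit2 (26.5 CPM), Usp18 (17.7 CPM) and Cxcl10 (23.4 CPM).

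Control replicate 1 of experiment B was the highest control for Irf7 (29.9 CPM) and Bst2 (72.9 CPM, the others 46.2 to 52.8). Control replicate 1 of experiment A was the lowest for Stat2 (28.8 CPM) and Irf9 (29.2 CPM). At airlift the lowest libraries were replicate 2 of experiment B for Ifit3 (21.3 CPM) and replicate 2 of experiment C for Cmpk2 (13.6 CPM). With NTHi, replicate 2 of experiment A was the highest for Cmpk2 (15.0 CPM), and replicate 3 of experiment C the lowest for Gbp7 (6.54 CPM, the others 12.2 to 15.6).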

How the results depend on the processing

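Of the members called, 27 of 31 for NTHi, 34 of 39 at airlift, 30 of 38 for day 4 control against airlift, 28 of 33 for day 4 control against isolation and 28 of 34 for NTHi against airlift kept call and direction under each alternative run. The number called higher with NTHi ranged from 28 to 35. The number called lower with NTHi, 1, became 3 with DESeq2 and with all 23 libraries in 1 fit, 2 with library totals alone, without the low-count filter and without experiment A, and 0 without experiment C. It ranged from 1 to 2 when single libraries were left out. At airlift 3 members in place of 5 were called lower with library totals alone. The 1 member called higher in day 4 control against airlift, Cxcl9, was lost (0 called) under the replicate block and without experiment A or C, and single libraries gave 0 to 1. Without the filter, 1 member passed the test for an NTHi effect that differed between experiments. The cause was not tested.

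Whether replicate numbers pair the samples could not be decided. Deviations of control and NTHi libraries correlated at 0.135 in A and 0.262 in B, and at -0.658, 0.259 and -0.46 for replicates 1, 2 and 3 of C. With 2 libraries per group, A and B give only 1 value each. In C, replicates 1 and 3 hold the 2 libraries that stood apart. With the replicate block 31 members were called higher with NTHi and 1 lower. Signs turned for NTHi without experiment A, where Ifit1 was -0.08, Rsad2 -0.48 and Cmpk2 -0.23, and Rsad2 ranged from -0.04 to 0.77 when single libraries were left out. With library totals alone, signs turned at airlift for Trim25 (0.15) and Oasl1 (0.03), and in day 4 control against isolation for Stat2 (0.31) and Usp18 (0.20). None of these NTHi values passed the test. Depth limited Cxcl9, Cxcl11 and the interferon ligands.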
